A study of Mus musculus with 20 samples.

Results

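The 8 genes of mast cells and basophils measured here in sorted mouse bone marrow progenitors were Cpa3, Mcpt8, Fcer1a, Ms4a2, Il6ra, Prss34, Hdc and Cma1. They were chosen by name, as the probe sets whose annotated symbol is exactly 1 of these 8, among 22180 genes with a named probe set. Each of the 8 had 1 probe set. All but Cma1, 7 in number, lay above the filter on dim genes and were tested. The arrays compare wild-type mice (WT) with mice labelled CreER-Raptor. Raptor, gene Rptor, is the subunit that recruits substrates to mTOR complex 1, a kinase complex that controls growth and metabolism. CreER is a Cre recombinase fused to an estrogen receptor domain, which makes its activity depend on an added ligand. All mice were female on a C57BL/6 background. Common myeloid progenitors (CMP, 3 arrays per genotype) and granulocyte-macrophage progenitors (GMP, 3 per genotype) were lysed after the sort. Lineage-negative cells (Lin-, 4 per genotype) were kept for 12 h in culture with the macrophage growth factor M-CSF at 10 ng/ml, and are called Lin- + MCSF. The labels do not give the Cre driver, its induction, whether WT mice carried it, or the sort gates. Because only the Lin- cells were cultured, the effects of the sort and of the culture cannot be told apart in any comparison with CMPs or GMPs.

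Mast cells and basophils are granulated cells that arise from myeloid progenitors. Both carry FcεRI, the high-affinity receptor for IgE, built from an α chain that binds IgE (Fcer1a), a β chain that amplifies the signal (Ms4a2) and γ chains that start it (Fcer1g). Antigen that cross-links bound IgE releases histamine, made by histidine decarboxylase (Hdc), and granule proteases. Of these, Mcpt8 and Prss34 are serine proteases of mouse basophils, Cma1 is a chymase of connective tissue mast cells, and Cpa3 is a carboxypeptidase found in mast cells and in basophil and mast cell precursors. Il6ra encodes the ligand-binding chain of the interleukin-6 receptor. It is found on many myeloid cells and is not restricted to mast cells or basophils.

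All levels are log2 signals. They compare 1 gene between groups, and the level of one gene is not set against that of another. Array medians lay between 4.76 and 4.91, and every array correlated with each other array of its group at r of 0.982 or more. Rptor itself was 0.29 lower in CreER-Raptor CMPs, 0.17 lower in GMPs and 0.18 lower in Lin- + MCSF cells (log2 differences of -0.29, -0.17 and -0.18, adjusted p = 0.163, 0.465 and 0.305). None of these differences passed. The Rptor probe set may lie outside the deleted part, which the sources do not give, or the deletion may be incomplete. Neither was tested, so these values do not check the genotype labels. Fcgr3, an Fc receptor used to separate the 2 progenitors, was higher in WT GMPs than in WT CMPs by 1.08 ± 0.14 (SE, adjusted p = 2.53e-05). Gate genes also differed between genotypes. Mean Cd34 was 10.65 in WT and 9.57 in CreER-Raptor CMPs, and 10.26 and 8.89 in GMPs. Mean Fcgr3 was 9.47 and 8.83 in CMPs, and 10.55 and 10.48 in GMPs. Of 6 tested gate genes, 2 rose and 2 fell in CreER-Raptor CMPs, and 3 rose and 1 fell in GMPs. The part of these differences in the results was not tested. In bulk RNA, fewer cells of a type and less RNA per cell cannot be told apart. Nothing in the labels ties replicates to different mice, and the p-values therefore reflect the scatter of these arrays alone, part of which may be technical.

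**Figure D1:**
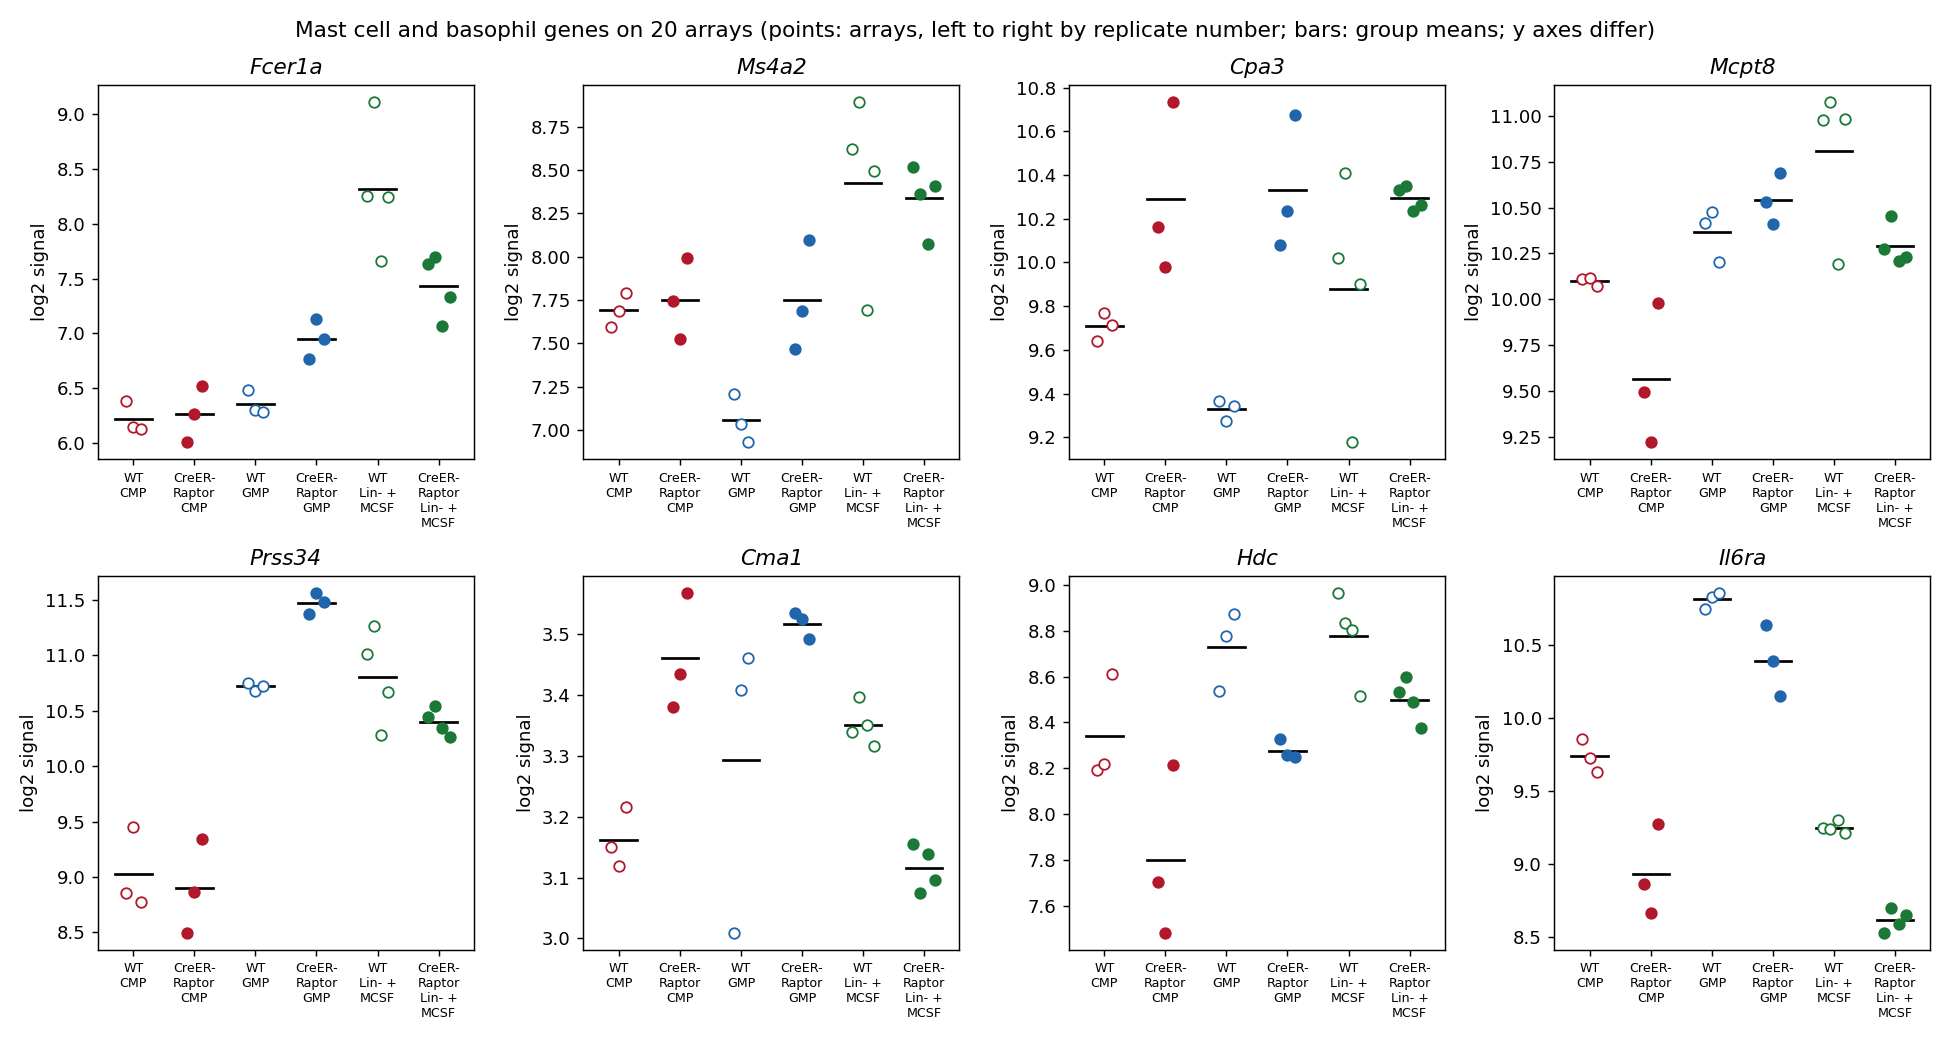
Log2 signal of the 8 genes on every array (points) with group means (bars), by population and genotype. Prss34 in CMPs lay between 8.50 and 9.45 and in GMPs between 10.68 and 11.57, and Cma1 stayed between 3.01 and 3.57 on all 20 arrays.

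Of the 7 tested genes, 2 were called at an adjusted p under 0.05 in CMPs, where 11.4% of all 16638 tested genes were called (6.01% higher and 5.44% lower). In GMPs 4 were called, against 11.9% of all (4.37% higher and 7.53% lower), and in Lin- + MCSF cells 3, against 12.5% of all (6.82% higher and 5.73% lower). In CMPs Il6ra and Hdc fell, in GMPs Cpa3, Prss34 and Ms4a2 rose and Il6ra fell, and in Lin- + MCSF cells Il6ra, Fcer1a and Mcpt8 fell. The median change of the 7 was -0.12 in CMPs, 0.59 in GMPs and -0.41 in Lin- + MCSF cells, against medians of -0.01, 0.02 and 0.01 over all tested genes. The ranges of WT and CreER-Raptor arrays were apart for 3 of 7 genes in CMPs (30.8% of all tested genes), 6 in GMPs (32.4%) and 1 in Lin- + MCSF cells (13.9%). The GMP count went from 4 to 1 without any 1 of 5 GMP arrays, all but CreER-Raptor replicate 1, and the gene still called was Cpa3. The CMP count fell to 1 without CreER-Raptor replicate 1 or 2 or WT replicate 3, and rose to 4 without WT Lin- + MCSF replicate 3. The difference of genotype changes passed for no member between GMPs and CMPs in the limma fit, where 2.5% of all genes passed, with 2 of 7 at an unadjusted p under 0.05 (2 passed, Mcpt8 and Prss34, without CreER-Raptor CMP replicate 3), or between Lin- + MCSF cells and CMPs (7.77% of all genes), with 1 of 7 (1 passed, Fcer1a, without WT Lin- + MCSF replicate 3). Between Lin- + MCSF cells and GMPs it passed for 2, Fcer1a and Prss34 (4.77%), and for 5, with Cpa3 -0.82, Mcpt8 -0.90 and Ms4a2 -1.02, without WT Lin- + MCSF replicate 3. All shares of tested genes in this paragraph come from the fit of all 20 arrays. No share is given for the fits without an array, so the counts of those fits cannot be set against these shares.

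**Figure D2:**
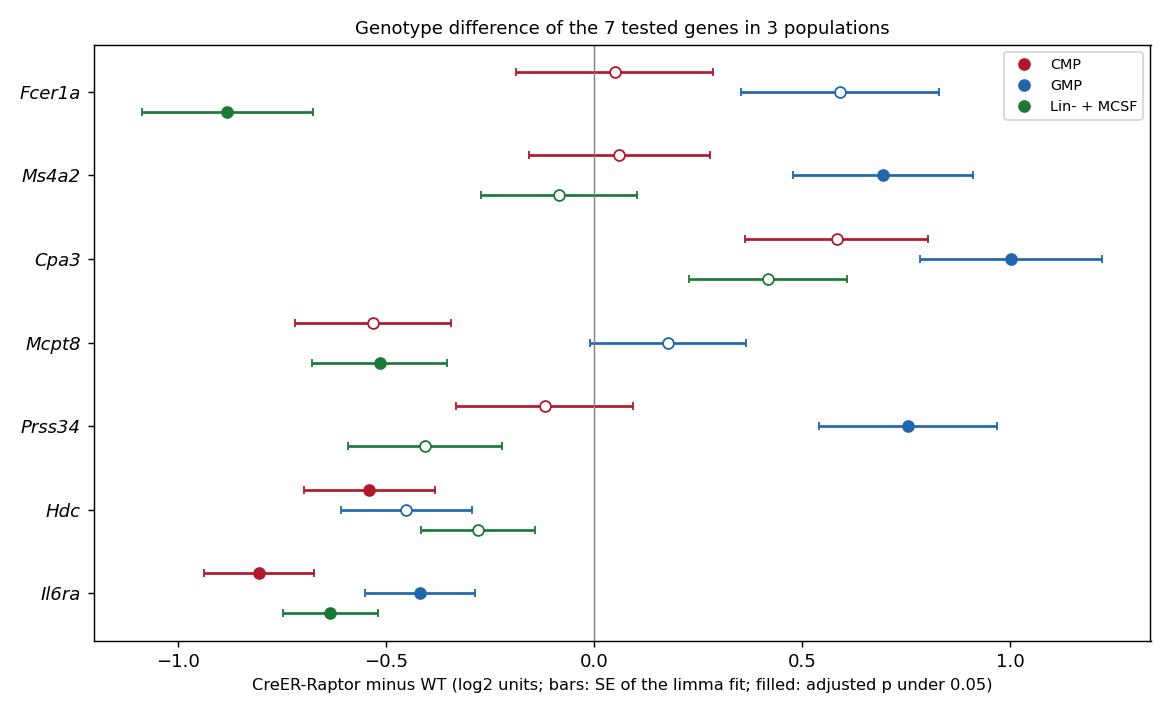
Differences of CreER-Raptor minus WT for the 7 tested genes in each population, with SE (log2 units). Cma1, which was not tested, is not shown. Cpa3 is at 1.00 in GMPs, Fcer1a runs from 0.59 in GMPs to -0.88 in Lin- + MCSF cells, and Il6ra is below 0 in all 3.

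The IgE receptor α chain, Fcer1a, was highest in cultured Lin- cells, and the genotypes differed there in the opposite direction to GMPs. In Lin- + MCSF cells the WT arrays read 8.25, 9.11, 7.66 and 8.24, and the CreER-Raptor arrays 7.63, 7.70, 7.07 and 7.33. In GMPs the WT arrays read 6.48, 6.31 and 6.28 against 6.77, 7.13 and 6.95 in CreER-Raptor. In CMPs they read 6.38, 6.14 and 6.13 against 6.01, 6.27 and 6.52. The genotypes overlapped in CMPs, were fully apart in GMPs with CreER-Raptor above WT, and overlapped by 1 low WT array, replicate 3, in Lin- + MCSF. Fcer1a fell in CreER-Raptor Lin- + MCSF cells by 0.88 ± 0.21 on the log2 scale (SE, a 1.84-fold decrease, adjusted p = 0.00662). The GMP difference of 0.59 ± 0.24 did not pass (adjusted p = 0.122), nor did that of 0.05 ± 0.24 in CMPs (adjusted p = 0.953). The difference between the genotype changes of Lin- + MCSF cells and GMPs did pass, at -1.47 ± 0.31 (adjusted p = 0.00715), while that between Lin- + MCSF cells and CMPs, at -0.93 ± 0.31, did not (adjusted p = 0.0782). When only the Lin- + MCSF arrays were fitted, the decrease there had an adjusted p of 0.0732, and the GMP difference passed under 4 of 31 alternatives, among them a fit of the GMP arrays alone (adjusted p = 0.00808).

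The β chain, Ms4a2, was also highest in the cultured cells but differed by genotype in GMPs. WT GMPs read 7.21, 7.03 and 6.93, and CreER-Raptor GMPs 7.47, 7.69 and 8.10. In CMPs the WT arrays read 7.59, 7.69 and 7.79 and the CreER-Raptor arrays 7.74, 7.52 and 7.99. Lin- + MCSF cells gave 8.62, 8.89, 7.69 and 8.49 in WT and 8.51, 8.36, 8.08 and 8.41 in CreER-Raptor. The WT GMP arrays were thus the lowest group and lay entirely below CreER-Raptor GMPs, whereas the other genotype pairs overlapped. Ms4a2 rose in CreER-Raptor GMPs by 0.69 ± 0.22 (1.62-fold, adjusted p = 0.0402), and differed by 0.06 ± 0.22 in CMPs (adjusted p = 0.933) and by -0.08 ± 0.19 in Lin- + MCSF cells (adjusted p = 0.837). The GMP rise did not pass without a filter on dim genes (adjusted p = 0.0504) or without any 1 of 5 GMP arrays, all but CreER-Raptor replicate 1 (adjusted p = 0.0607 to 0.169).

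The third chain of the receptor, Fcer1g, had genotype calls unlike those of the α and β chains, which also had no call in common. It fell in CreER-Raptor CMPs by 1.01 ± 0.11 (adjusted p = 1.68e-06) and in GMPs by 1.34 ± 0.11 (adjusted p = 3.00e-08), the population in which Ms4a2 rose. In Lin- + MCSF cells its difference was -0.18 ± 0.10 (adjusted p = 0.257). Its genotype change there differed from that in GMPs by 1.16 ± 0.15 (adjusted p = 3.40e-05). Fcer1g is also a signalling chain of other Fc receptors on monocytes and neutrophils. In the same comparisons 6 of 9 tested monocyte markers fell in CMPs and 6 in GMPs, as did 9 and 3 of 11 neutrophil markers, with 1 neutrophil marker higher in GMPs (median changes of -0.79 and -0.01). The mean of the 9 monocyte markers was 9.09 to 9.19 per WT CMP array against 7.87 to 8.05 in CreER-Raptor, and 9.56 to 9.59 per WT GMP array against 8.34 to 8.49. Their part in the Fcer1g result was not tested.

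**Figure D3:**
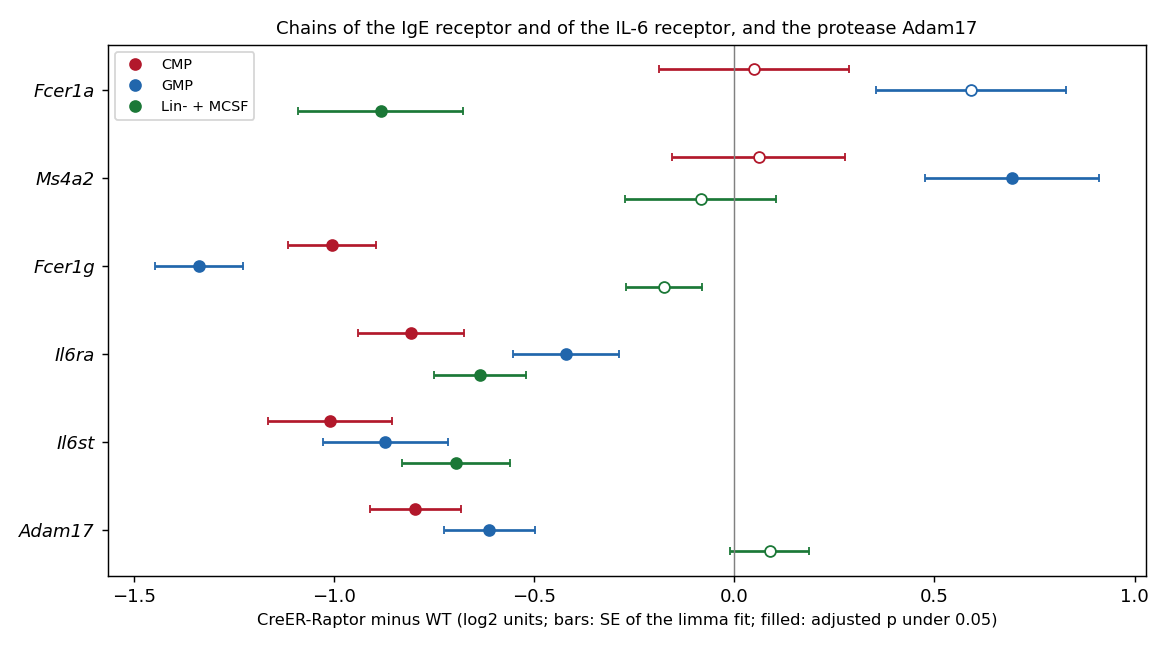
Differences of CreER-Raptor minus WT with SE (log2 units) for the chains of the IgE receptor (Fcer1a, Ms4a2, Fcer1g) and of the IL-6 receptor (Il6ra, Il6st), and for Adam17. Fcer1g sits at -1.01 in CMPs and -1.34 in GMPs, while Ms4a2 sits at 0.69 in GMPs, and Il6ra and Il6st are below 0 in all 3 populations.

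Among the granule proteases, Cpa3 and Prss34 were higher in CreER-Raptor GMPs, and Mcpt8 was lower in CreER-Raptor Lin- + MCSF cells. For Cpa3, the WT GMP arrays read 9.36, 9.27 and 9.34 against 10.08, 10.24 and 10.67 in CreER-Raptor. Its CMP arrays read 9.64, 9.77 and 9.71 in WT and 10.16, 9.98 and 10.73 in CreER-Raptor. The Lin- + MCSF arrays read 10.02, 10.41, 9.18 and 9.90 in WT and 10.33, 10.35, 10.24 and 10.26 in CreER-Raptor. CreER-Raptor arrays were entirely above WT in CMPs and GMPs, and in the cultured cells WT replicate 2 lay above them all. Cpa3 rose in CreER-Raptor GMPs by 1.00 ± 0.22 (2.00-fold, adjusted p = 0.00360). It differed by 0.58 ± 0.22 in CMPs (adjusted p = 0.0998) and 0.42 ± 0.19 in Lin- + MCSF cells (adjusted p = 0.167), neither of which passed. The CMP difference did pass with array weights (adjusted p = 0.0182) and without WT Lin- + MCSF replicate 3 (adjusted p = 0.0236). The Lin- + MCSF difference was 0.59 without WT replicate 2 (adjusted p = 0.0402) and 0.18 without WT replicate 3 (adjusted p = 0.523). None of the 31 alternatives took the GMP rise below the threshold (adjusted p = 8.19e-05 to 0.0249). The 3 pairwise differences between genotype changes of the populations did not pass for Cpa3 (adjusted p = 0.645, 0.843 and 0.307).

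Prss34, a serine protease of basophil granules, was higher in GMPs than in CMPs in both genotypes. CMP arrays read 8.85, 9.45 and 8.77 in WT and 8.50, 8.87 and 9.35 in CreER-Raptor. GMP arrays read 10.75, 10.68 and 10.73 in WT and 11.37, 11.57 and 11.49 in CreER-Raptor. Lin- + MCSF arrays read 11.01, 11.26, 10.28 and 10.67 in WT and 10.45, 10.54, 10.34 and 10.26 in CreER-Raptor. All GMP arrays lay above all CMP arrays, the genotypes overlapped in CMPs and in cultured cells, and they were apart in GMPs. Prss34 was 1.70 ± 0.21 higher in WT GMPs than in WT CMPs (3.24-fold, adjusted p = 2.10e-05). It rose in CreER-Raptor GMPs by 0.75 ± 0.21 (1.69-fold, adjusted p = 0.0233), with differences of -0.12 ± 0.21 in CMPs and -0.41 ± 0.19 in Lin- + MCSF cells that did not pass (adjusted p = 0.852 and 0.167). Without WT Lin- + MCSF replicate 3 the latter was -0.58 and passed (adjusted p = 0.0377). The Lin- + MCSF change differed from the GMP change by -1.16 ± 0.28 (adjusted p = 0.0185). The GMP rise was lost without any 1 of 5 GMP arrays, all but CreER-Raptor replicate 1 (adjusted p = 0.0528 to 0.0923). The difference between populations was lost without replicate 2 of CreER-Raptor GMPs (adjusted p = 0.0538) or of WT GMPs (adjusted p = 0.0513).

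Mcpt8, mouse mast cell protease 8, is a granule serine protease used as a basophil marker. Lin- + MCSF arrays read 10.98, 11.07, 10.19 and 10.98 in WT and 10.28, 10.46, 10.21 and 10.23 in CreER-Raptor. CMP arrays read 10.11, 10.12 and 10.07 in WT and 9.50, 9.22 and 9.98 in CreER-Raptor. GMP arrays read 10.42, 10.47 and 10.20 in WT and 10.53, 10.41 and 10.69 in CreER-Raptor. WT replicate 3 of the cultured cells stood below the other WT arrays and below all CreER-Raptor arrays, and CMP genotypes were apart with WT above. Mcpt8 fell in CreER-Raptor Lin- + MCSF cells by 0.52 ± 0.16 (1.43-fold, adjusted p = 0.0415), differed by -0.53 ± 0.19 in CMPs (adjusted p = 0.0760) and by 0.18 ± 0.19 in GMPs (adjusted p = 0.655). When only the Lin- + MCSF arrays were fitted, the adjusted p of that decrease was 0.126, and it did not pass under 12 of 31 alternatives in all. Without WT Lin- + MCSF replicate 3, the difference in CMPs, whose size that array does not enter, passed at an adjusted p of 0.0140, as it did at -0.74 without CreER-Raptor CMP replicate 3 (adjusted p = 0.0129).

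Cma1 lay below the filter level in all 6 groups, so no test was made. Its group means ran from 3.12 in CreER-Raptor Lin- + MCSF cells to 3.52 in CreER-Raptor GMPs, and the filter level was 3.86. Of the 10 other granule proteases with a probe set, 6 were also below it: Mcpt1, Mcpt2, Mcpt4, Mcpt9, Cma2 and Tpsab1, all mast cell chymases or tryptases. Their group means ran from 2.43 to 3.82. Of the 4 tested there, Gzmb (granzyme B) fell in CreER-Raptor CMPs (-0.62 ± 0.19, adjusted p = 0.0338; 0.0513 to 0.0542 under 3 other scalings), and no other genotype change of Tpsb2, Tpsg1, Gzmb or Ctsg passed in any population. A dim signal is no measure of absence.

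Sequences upstream of the 3 members that rose in CreER-Raptor GMPs, and of Fcer1a, whose genotype change differed between Lin- + MCSF cells and GMPs, are printed because GATA factors act in mast cell and basophil precursors. Each line holds the 250 bases before an annotated start site in RefSeq (GRCm38.p6), on the strand of the gene. The windows, in the order printed, are chr3:20242182-20242431 (minus), chr19:11623720-11623969 (minus), chr17:25298144-25298393 (plus) and chr1:173227230-173227479 (minus). The minus-strand windows overlap the annotated spans of their genes, which end at 20242209 (Cpa3), 11623790 (Ms4a2) and 173227232 (Fcer1a). The Ms4a2 matches at 37 and 11 bases lie inside its span. Capitals mark each match, on either strand, to the word GATA with A or T before it and A or G after it.
Cpa3: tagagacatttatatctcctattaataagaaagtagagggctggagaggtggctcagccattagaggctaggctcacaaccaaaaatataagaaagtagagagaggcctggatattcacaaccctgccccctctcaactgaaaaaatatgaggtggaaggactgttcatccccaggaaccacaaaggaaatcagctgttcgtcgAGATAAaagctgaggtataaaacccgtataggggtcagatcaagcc
Ms4a2: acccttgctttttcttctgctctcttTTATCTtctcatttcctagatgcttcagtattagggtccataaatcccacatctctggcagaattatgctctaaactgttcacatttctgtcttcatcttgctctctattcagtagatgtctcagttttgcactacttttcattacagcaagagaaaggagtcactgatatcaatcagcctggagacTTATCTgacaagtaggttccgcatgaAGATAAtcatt
Prss34: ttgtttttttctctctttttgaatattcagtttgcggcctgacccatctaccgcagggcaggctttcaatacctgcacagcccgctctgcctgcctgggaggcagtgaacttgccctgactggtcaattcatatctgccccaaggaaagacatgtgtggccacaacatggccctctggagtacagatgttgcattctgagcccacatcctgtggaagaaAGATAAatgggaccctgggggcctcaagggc
Fcer1a: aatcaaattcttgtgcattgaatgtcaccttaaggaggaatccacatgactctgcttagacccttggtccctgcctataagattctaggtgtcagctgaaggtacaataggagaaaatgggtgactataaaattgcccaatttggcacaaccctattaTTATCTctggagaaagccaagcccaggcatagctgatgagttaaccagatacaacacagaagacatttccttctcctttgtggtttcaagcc
Cpa3 held 1 match, 46 bases before the start, Prss34 1 at 31 bases, Fcer1a 1 at 92 bases and Ms4a2 3 at 224, 37 and 11 bases. Of the other 4 members, Il6ra, Hdc and Cma1 held 1 each and Mcpt8 held 0. Of 32841 RefSeq promoter windows of this length, 26.5% held at least 1 match and 1.35% at least 3. Gata2, a GATA factor of mast cell and basophil precursors, rose in CreER-Raptor CMPs by 0.66, GMPs by 1.12 and Lin- + MCSF cells by 0.50 (adjusted p = 0.0221, 0.000248 and 0.0438). The rise in Lin- + MCSF cells did not pass in 15 of the alternatives, nor that in CMPs in 4 (adjusted p of up to 0.142 and 0.116). A match of letters is a description and not a site of binding.

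Hdc, the enzyme that makes histamine, was lower in CreER-Raptor CMPs. CMP arrays read 8.19, 8.22 and 8.61 in WT and 7.70, 7.48 and 8.21 in CreER-Raptor. GMP arrays read 8.54, 8.78 and 8.87 in WT and 8.33, 8.26 and 8.25 in CreER-Raptor. Lin- + MCSF arrays read 8.97, 8.83, 8.80 and 8.51 in WT and 8.53, 8.60, 8.49 and 8.38 in CreER-Raptor. The genotypes overlapped by 1 array in CMPs and in cultured cells, and WT GMPs lay above CreER-Raptor GMPs. Hdc fell in CreER-Raptor CMPs by 0.54 ± 0.16 (1.45-fold, adjusted p = 0.0271), and its differences of -0.45 ± 0.16 in GMPs and -0.28 ± 0.14 in Lin- + MCSF cells did not pass (adjusted p = 0.0681 and 0.201). The GMP difference passed under 8 of 31 alternatives, among them a fit of the GMP arrays alone (adjusted p = 0.0212) and array weights (adjusted p = 0.0231). The CMP decrease was lost in a fit of the CMP arrays alone (adjusted p = 0.0931), and without CreER-Raptor CMP replicate 1 or 2 (adjusted p = 0.104 and 0.203) or WT CMP replicate 3 (adjusted p = 0.172). Of 6 other histamine genes, Hrh2, a histamine receptor, fell in CMPs (-0.80, adjusted p = 0.0221) and in GMPs (-0.77, adjusted p = 0.0280), and lost the call without any 1 of the CMP arrays but CreER-Raptor replicate 3, or of 4 of the 6 GMP arrays.

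Il6ra fell in CreER-Raptor cells of all 3 populations. WT CMPs read 9.86, 9.73 and 9.63 and CreER-Raptor CMPs 8.86, 8.66 and 9.27. WT GMPs read 10.75, 10.83 and 10.86 and CreER-Raptor GMPs 10.64, 10.40 and 10.15. WT Lin- + MCSF cells read 9.24, 9.24, 9.30 and 9.21 and CreER-Raptor cells 8.53, 8.70, 8.59 and 8.65. The genotypes were apart in each population, with WT above. The decreases were 0.81 ± 0.13 in CMPs (1.75-fold, adjusted p = 0.000186), 0.42 ± 0.13 in GMPs (1.34-fold, adjusted p = 0.0423) and 0.63 ± 0.11 in Lin- + MCSF cells (1.55-fold, adjusted p = 0.000743). The GMP decrease did not pass under 14 of 31 alternatives, among them 5 of the 6 that leave out a GMP array and a fit of the GMP arrays alone, with adjusted p-values of up to 0.184. Il6ra was also 1.08 ± 0.13 higher in WT GMPs than in WT CMPs and 1.57 ± 0.12 lower in WT Lin- + MCSF cells than in WT GMPs.

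The other chain of the IL-6 receptor, Il6st (gp130, the signalling chain), also fell in all 3 populations, by 1.01 in CMPs, 0.87 in GMPs and 0.69 in Lin- + MCSF cells (adjusted p = 9.03e-05, 0.000547 and 0.00141). Of the 13 tested IL-6 pathway genes besides Il6ra, 1 rose and 2 fell in CMPs, 1 and 3 in GMPs, and 1 and 1 in Lin- + MCSF cells. The shares of all tested genes called in these populations were 11.4%, 11.9% and 12.5%. Adam17, the protease that sheds the IL-6 receptor, fell by 0.80 in CMPs and 0.61 in GMPs, and in Lin- + MCSF cells was 0.09 higher without passing (adjusted p = 4.23e-05, 0.000880 and 0.635). Cish, a feedback inhibitor of cytokine signalling, rose by 1.02 in Lin- + MCSF cells (adjusted p = 0.000241), and Stat3, which relays the IL-6 signal, rose by 0.58 in GMPs (adjusted p = 0.00119).

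Among populations of WT cells, 6 of 7 were called between Lin- + MCSF cells and CMPs (55.6% of all tested genes), 5 between Lin- + MCSF cells and GMPs (56.3%) and 2 between GMPs and CMPs (11%). Fcer1a was 2.10 ± 0.22 higher in Lin- + MCSF cells than in CMPs (4.27-fold) and 1.96 ± 0.22 higher than in GMPs (3.89-fold). Ms4a2 was 0.73 ± 0.20 and 1.37 ± 0.20 higher. The median of all tested genes shifted by -0.14 in both. In CreER-Raptor cells 5 of 7 were called between GMPs and CMPs (27.9% of all), 6 between Lin- + MCSF cells and CMPs (56.3%) and 3 between Lin- + MCSF cells and GMPs (61%). Prss34 there was 2.57 ± 0.21 higher in GMPs than in CMPs, and 1.08 ± 0.20 lower in Lin- + MCSF cells than in GMPs.

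The order of the levels resolved only in part. Between groups that differ in both genotype and population, 26.2% of all tested genes were called for CreER-Raptor GMPs against WT CMPs, 26.7% for WT GMPs against CreER-Raptor CMPs, 55.4% for CreER-Raptor Lin- + MCSF cells against WT CMPs and 56.9% against WT GMPs, and 57.5% for WT Lin- + MCSF cells against CreER-Raptor CMPs and 61.7% against CreER-Raptor GMPs. For Cpa3 and Mcpt8 no neighbouring pair of the 6 groups differed at an adjusted p under 0.05, although the highest and lowest groups did. Il6ra was the only one of the 7 for which all 5 neighbours differed, in the order WT GMP, CreER-Raptor GMP, WT CMP, WT Lin- + MCSF, CreER-Raptor CMP and CreER-Raptor Lin- + MCSF. Its step from CreER-Raptor CMPs to CreER-Raptor Lin- + MCSF cells was lost under 9 of 30 alternatives, among them 3 other scalings (adjusted p = 0.0650 to 0.716), and was -0.15 without CreER-Raptor CMP replicate 3 (adjusted p = 0.317). The step from WT CMPs to WT Lin- + MCSF cells was lost under cyclic loess (adjusted p = 0.189). Prss34 fell into 3 levels: CreER-Raptor GMPs on top, then WT Lin- + MCSF cells, WT GMPs and CreER-Raptor Lin- + MCSF cells, then both CMP groups. For Fcer1a only the step from WT to CreER-Raptor Lin- + MCSF cells passed, for Ms4a2 that from CreER-Raptor Lin- + MCSF cells to CreER-Raptor CMPs (adjusted p = 0.0176), and for Hdc that from CreER-Raptor GMPs to CreER-Raptor CMPs (adjusted p = 0.0268).

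Over the 20 arrays, which share the 6 groups, the members did not form a single pattern. The Pearson correlation was 0.80 for Fcer1a with Ms4a2, 0.79 for Mcpt8 with Prss34 and 0.73 for Mcpt8 with Hdc. Il6ra correlated at -0.70 with Ms4a2 and -0.48 with Cpa3. The genes most like each member were Csrp3 (0.84), Gata2 (0.83) and Slc30a4 (0.82) for Cpa3, Gpr34 (0.95), Id3 (0.94) and Nfatc2 (0.93) for Fcer1a, and Ctnnd2 (0.90), Snhg9 (0.87) and Slc18a2 (0.87) for Ms4a2. For Prss34 they were Sirpa (0.89), App (0.88) and Plekha2 (0.87), and for Mcpt8 Rnf217 (0.87), Themis2 (0.84) and Nin (0.84). Hdc was followed by Themis2 (0.90), Hsd17b11 (0.90) and Itgal (0.90), and Il6ra by Rnpep (0.96), Myo1g (0.95) and Elmo2 (0.95).

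The arrays within a group were not equally placed. CreER-Raptor CMP replicate 3 was the highest of its group for all 8 genes, with a mean deviation of 0.36 from the group mean over the 7 tested. Its mean of 9 erythroid markers, 9.41, was the lowest of that group, whose highest was 10.12. WT Lin- + MCSF replicate 3 was the lowest of its group for 5 genes, Cpa3, Mcpt8, Fcer1a, Ms4a2 and Prss34 (deviations of -0.70, -0.61, -0.65, -0.73 and -0.52). Its mean deviation over all 7 tested genes was -0.45. In the same group replicate 2 was the highest for 6 of the 8. The mean of 11 neutrophil markers was 11.52 on replicate 3, the highest of its group, whose lowest was 10.84. The part of these differences in the results was not tested.

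**Figure D4:**
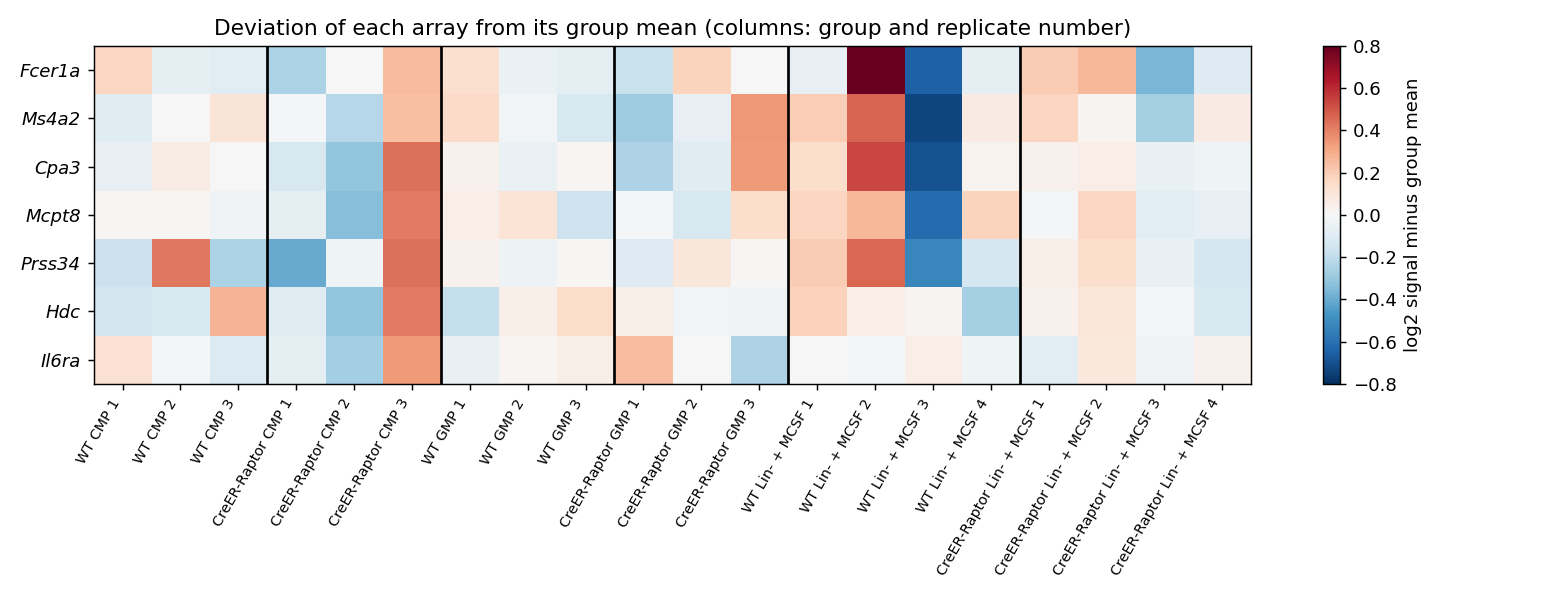
Deviation of each array from its group mean for the 7 tested genes (log2 units). CreER-Raptor CMP replicate 3 lies above 0 for all 7 (mean 0.36) and WT Lin- + MCSF replicate 3 lies lowest for 5 (mean over all 7 of -0.45).

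Genes with related roles moved in both directions. Of 18 tested genes of IgE receptor signalling besides Fcer1a and Ms4a2, 2 rose and 6 fell in CMPs, 2 rose and 3 fell in GMPs, and 2 rose in Lin- + MCSF cells. Lat2 and Prkcd, an adaptor and a kinase downstream of the receptor, fell: Lat2 changed by -0.91 in CMPs and -1.15 in GMPs, and Prkcd by -0.86 and -0.58. Gab2, an adaptor, rose by 0.78 and 0.70 in the same populations, and Lat, the main adaptor, rose in all 3, by 0.57, 0.69 and 0.74. Of 15 granule storage genes, 3 rose in CMPs, 2 rose and 2 fell in GMPs and 3 rose in Lin- + MCSF cells. Ndst2, which sulfates the heparin of mast cell granules, rose in CMPs by 1.64 (adjusted p = 1.45e-08), and Slc18a2, which loads histamine into vesicles, rose by 0.70 in GMPs and 0.83 in Lin- + MCSF cells. Of 9 eicosanoid genes, Hpgds, the prostaglandin D2 synthase of mast cells, rose in all 3 populations, by 1.16, 1.08 and 0.76. Lta4h and Mgst2, of leukotriene synthesis, fell in CMPs (log2 changes of -1.01 and -0.84).

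Of 15 transcription factors of the lineage, 6 rose and 3 fell in CMPs, 3 rose and 2 fell in GMPs, and 9 rose in Lin- + MCSF cells (4 when only those arrays were fitted, and 5 without CreER-Raptor replicate 1 or 3 or WT replicate 4). Bhlhe40 rose in all 3 (1.32, 1.40 and 1.03). Mitf, needed for mast cell development, fell in CMPs (-0.59) and GMPs (-0.91). Gata1 rose by 0.73 in CMPs and 0.55 in Lin- + MCSF cells. Of 21 surface receptors, 3 rose and 2 fell in CMPs, 6 and 2 in GMPs, and 4 and 5 in Lin- + MCSF cells, where 3 in all were called when only those arrays were fitted. C3ar1, the receptor of the complement fragment C3a, rose by 1.03 in CMPs and 1.12 in GMPs and fell by 1.65 in Lin- + MCSF cells, and its change there differed from that in GMPs by -2.76 ± 0.22 (adjusted p = 5.42e-08). Kit, the stem cell factor receptor, rose by 0.42 in CMPs and 0.99 in Lin- + MCSF cells. Of 10 effector cytokines, Il4 rose in CMPs by 1.74, Csf1 rose in GMPs by 1.65, and Ccl4, Csf1 and Ccl3 rose in Lin- + MCSF cells by 1.08, 1.05 and 0.80.

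**Figure D5:**
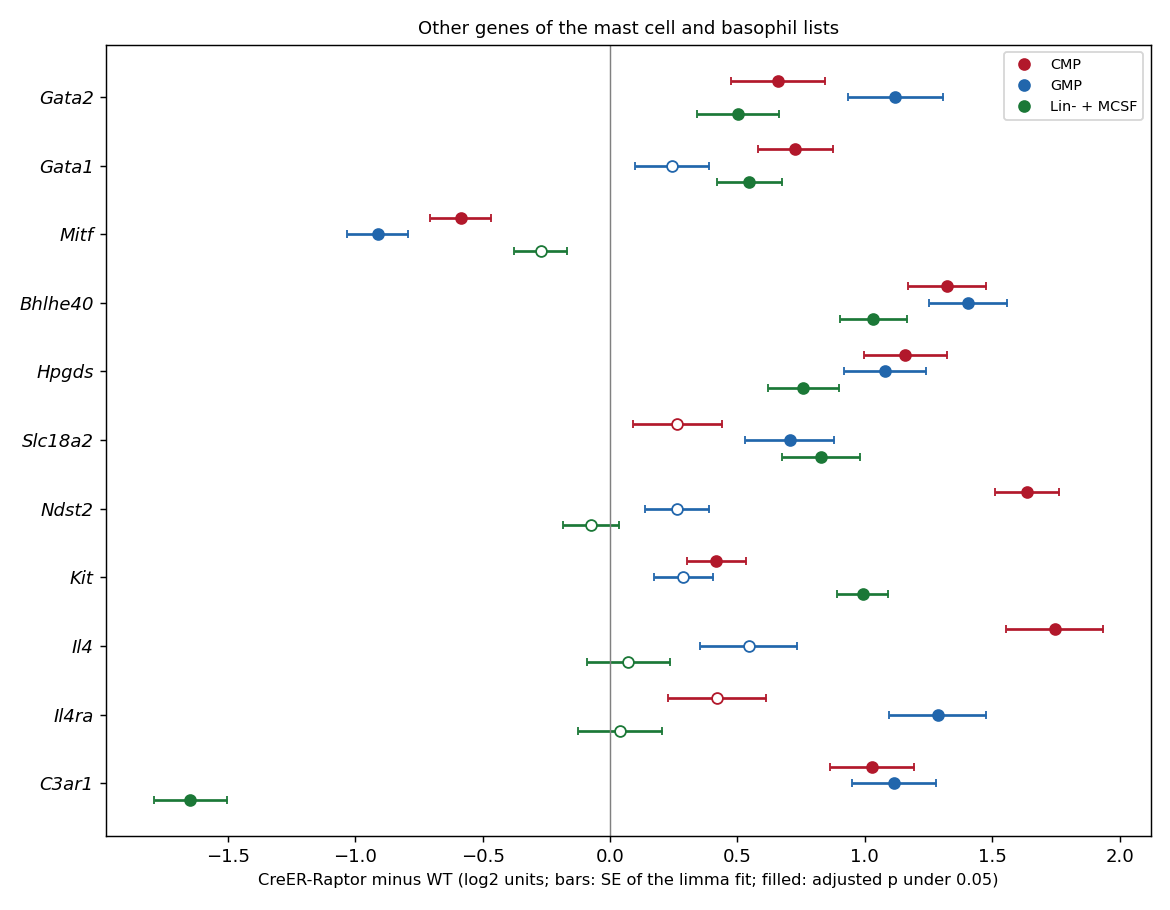
Differences of CreER-Raptor minus WT with SE (log2 units) for genes of the related lists in the 3 populations. Hpgds and Bhlhe40 are above 0 in all 3, and C3ar1 changes from 1.03 in CMPs and 1.12 in GMPs to -1.65 in Lin- + MCSF cells.

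Markers of other cell types moved with the genotype. Of 9 erythroid markers, which share GATA factors with mast cells and basophils, 7 rose in CMPs, 5 in GMPs and 7 in Lin- + MCSF cells, and none fell. Their mean per array was 8.24 to 8.50 in WT CMPs against 9.41 to 10.12 in CreER-Raptor, 5.40 to 5.71 against 6.18 to 7.25 in GMPs, and 5.52 to 5.94 against 6.40 to 7.09 in Lin- + MCSF cells. Of 7 megakaryocyte markers, another lineage with GATA factors, 1 rose in CMPs, 1 in GMPs and 4 in Lin- + MCSF cells, where their mean per array was 5.79 to 6.14 in WT and 6.36 to 6.62 in CreER-Raptor. Of 9 lymphoid markers, 1 rose and 2 fell in CMPs, 1 fell in GMPs and 1 rose in Lin- + MCSF cells. Eosinophil markers, of a granulocyte that shares genes with basophils, fell for 4 of 7 in CMPs and 4 of 7 in GMPs (2 of 7 under repeated quantile normalization, cyclic loess or no filter, or without replicate 1 or 2 of CreER-Raptor or 1 or 3 of WT GMPs), and in Lin- + MCSF cells 1 rose and 2 fell. Their mean ran from 7.30 to 7.87 in WT GMPs and 6.37 to 6.53 in CreER-Raptor GMPs, the population where Cpa3, Prss34 and Ms4a2 rose. Epx, eosinophil peroxidase, fell by 1.74, 3.35 and 2.00 in the 3 populations. All 9 monocyte markers were above the filter level in every group, and 7 fell in Lin- + MCSF cells, where their mean ran from 9.60 to 9.93 in WT and 8.56 to 8.62 in CreER-Raptor. Of 11 neutrophil markers, Ly6g fell there, and the part of any of these markers in the changes of the 7 genes was not tested.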

How the data were processed

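Total RNA of 20 samples (1 to 5 ng) was amplified with a NuGEN kit, labelled with biotin and read on 1-colour arrays, according to the labels' protocols. Values are deposited on a log2 scale for 41345 probe sets. RMA, Partek 6.6 and limma are named in the submitters' processing notes without roles. The sources used here do not say if normalization spanned all arrays. No scanner files were analysed, so detection above background was not assessed, and the number of arrays limits the precision.

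Symbols came from the platform annotation, with the probe set of highest mean kept per gene. The filter kept genes whose mean reached the 25th percentile of single-gene probe sets (log2 3.86), 16638 of 22180. A single fit with limma 3.58.1 (R 4.3.3) of all 20 arrays with 6 group means (14 residual degrees of freedom) gave 12 comparisons and all 15 pairs of groups. P-values were Benjamini-Hochberg adjusted over the 16638 genes, and adjusted p under 0.05 is called passed, rose or fell. The fit was tested on simulated data. The 8 genes and all gene lists were chosen with earlier results of these data known. Named genes are the 8 members, up to 4 called genes of smallest p per list and comparison, the gate genes, and the 3 genes of highest Pearson correlation with each tested member; others were named after their values were seen. Alternatives covered filters, scaling, array weights, variance models, replicate blocks and leaving out each array.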

Additional observations from a re-analysis of the deposited data

Results flagged for a closer look

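Mcpt8 in WT Lin- + MCSF cells had 1 array, replicate 3 at 10.19, far below the other 3, which lay between 10.98 and 11.07. The gap of that array to its nearest neighbour was 0.891 of the range of the group, above the Dixon limit for 4 samples. Of 16 sets of 4 arrays tested this was the only one, and chance gives about 1 in 20.

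The genotype changes of Fcer1a in Lin- + MCSF cells and GMPs differed by -1.47 ± 0.31 (adjusted p = 0.00715), with a change of -0.88 in the former and 0.59 in the latter. For Prss34 the same difference was -1.16 ± 0.28 (adjusted p = 0.0185), from -0.41 and 0.75.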

How the results depend on the processing

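Over 31 alternatives, 20 of which leave out 1 array, no direction of a called result was turned. Of 2541 values for the tested members, 2414 kept their side of the threshold, 82 lost the call and 45 gained one. Among the 2414, 41 differences that did not pass in either setting changed sign. Of 5419 values for called list genes 288 lost the call, and of 1488 list counts 102 moved by over 1.5 times. The count of members called changed by over 1.5 times when only the groups compared were fitted, to 1 for the genotype in CMPs, 1 in Lin- + MCSF cells, 4 for WT GMPs against CMPs and 3 for WT Lin- + MCSF cells against GMPs. Array weights gave 4 for the genotype in CMPs, 3 for the difference of changes between GMPs and CMPs and 1 for that between Lin- + MCSF cells and CMPs. With no filter on dim genes the genotype in GMPs gave 2, and the difference of changes between Lin- + MCSF cells and CMPs gave 1, Cma1 (-0.53, adjusted p = 0.0190). Cyclic loess gave 5 for CreER-Raptor Lin- + MCSF cells against GMPs. Leaving out 1 array gave 1 to 4 members for the genotype in CMPs, 1 to 5 in GMPs and 2 to 4 in Lin- + MCSF cells. In WT it gave 2 to 3 for GMPs against CMPs, 5 to 7 for Lin- + MCSF cells against CMPs and 3 to 5 against GMPs. In CreER-Raptor it gave 3 to 5, 5 to 6 and 2 to 4 in the same order. For the differences of changes it gave 0 to 2 between GMPs and CMPs, 0 to 1 between Lin- + MCSF cells and CMPs, and 1 to 5 between Lin- + MCSF cells and GMPs. The share of all tested genes called under each alternative is not given here, so these counts cannot be set against the shares given above. The cause of these moves was not tested.

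Same-numbered arrays deviated with correlations of -0.344 to 0.185. With 3 or 4 arrays per group, these values cannot show whether the numbers pair the samples. With the replicate number as a block, Ms4a2 in GMPs had an adjusted p of 0.0598, Il6ra in GMPs 0.0641, Hdc in GMPs 0.0490 and Mcpt8 in Lin- + MCSF cells 0.0598.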
